A study of Mus musculus with 6 samples.

Results

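Interferon-stimulated genes are the antiviral and immune genes that a cell switches on when interferon reaches its receptors. The list described here has 43 mouse genes, chosen by name as induced by type I or type II interferon, with chemokines and antigen presentation genes left out. Every array probe whose annotated symbol is one of these genes was taken, which gave 79 probes for 41 of the 43 genes, out of 19057 genes with a symbol on the array. For Ifi203 and Ifi44 no expression values were analysed here, and both enter only the promoter search. The RNA came from CD11b+Ly6G- cells, the gate of macrophages and monocytes, sorted from the hearts of ICR mice of mixed sex. ICR is an outbred strain. All mice had the left anterior descending coronary artery tied off, with no further treatment, and hearts were taken 3 days later. The infarct was made on day 1 after birth in the P1 group and on day 14 in the P14 group. Each group has 3 arrays, and with no uninjured hearts among them the values compare the ages after injury only.

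As background, type I interferons signal through the receptor chains Ifnar1 and Ifnar2 and the kinases Jak1 and Tyk2 to a transcription factor complex that includes Stat2 and Irf9 and binds a DNA element called the interferon-stimulated response element (ISRE). Interferon gamma signals through Ifngr1 and Ifngr2 to genes that carry the gamma-activated site (GAS). Sensors of foreign or misplaced nucleic acid start interferon production, and most of the induced genes encode proteins that block viral entry, copying or release. Macrophages and monocytes are among the cells that make these genes' products, and in infarcted adult hearts such cells are known to take up DNA of dying cells and to respond through the same pathway.

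The promoters of 5 members are shown as examples, and all 5 hold the ISRE letters. Isg15 and Bst2 passed the test described below, and Ifit3 and Rsad2 had large differences that did not. Gbp2 had the largest difference the other way, which did not pass and rested on 1 array. Not shown are the promoters of Oasl2, Cmpk2, Ifi35, Isg20 and Irf9, which passed the test and hold no ISRE letters there. Each stretch covers 300 bases, 250 before and 50 after the gene's start, 5′ to 3′ on the gene's strand, from RefSeq on build GRCm38.p6. Capitals mark matches to the ISRE letters, which are GAAA and GAAA with any 2 bases between, or the reverse complement, TTTC and TTTC with any 2 bases between.
Isg15, minus strand, chr4:156200769-156201068.
Isg15: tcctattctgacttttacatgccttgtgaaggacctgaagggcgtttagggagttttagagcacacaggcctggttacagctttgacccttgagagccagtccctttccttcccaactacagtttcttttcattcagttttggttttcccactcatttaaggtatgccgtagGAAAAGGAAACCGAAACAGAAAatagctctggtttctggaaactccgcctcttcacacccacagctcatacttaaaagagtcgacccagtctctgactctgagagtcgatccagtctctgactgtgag
Bst2, minus strand, chr8:71537423-71537722.
Bst2: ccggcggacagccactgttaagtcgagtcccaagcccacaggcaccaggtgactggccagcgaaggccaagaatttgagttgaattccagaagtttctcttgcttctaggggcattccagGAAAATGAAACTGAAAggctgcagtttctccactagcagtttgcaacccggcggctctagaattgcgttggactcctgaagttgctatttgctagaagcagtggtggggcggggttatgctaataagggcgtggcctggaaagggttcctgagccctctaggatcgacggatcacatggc
Ifit3, plus strand, chr19:34583279-34583578.
Ifit3: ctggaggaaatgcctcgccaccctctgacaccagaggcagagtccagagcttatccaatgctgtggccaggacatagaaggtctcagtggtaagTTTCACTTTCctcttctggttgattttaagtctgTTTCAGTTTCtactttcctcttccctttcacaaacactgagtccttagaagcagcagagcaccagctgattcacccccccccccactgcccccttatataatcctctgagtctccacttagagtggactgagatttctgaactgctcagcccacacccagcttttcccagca
Rsad2, minus strand, chr12:26456403-26456702.
Rsad2: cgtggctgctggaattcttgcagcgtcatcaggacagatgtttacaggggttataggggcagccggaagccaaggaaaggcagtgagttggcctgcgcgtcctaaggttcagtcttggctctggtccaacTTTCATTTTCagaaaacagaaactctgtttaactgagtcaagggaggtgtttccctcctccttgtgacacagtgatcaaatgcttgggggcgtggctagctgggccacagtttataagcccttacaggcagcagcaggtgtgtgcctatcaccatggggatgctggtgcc
Gbp2, plus strand, chr3:142620413-142620712.
Gbp2: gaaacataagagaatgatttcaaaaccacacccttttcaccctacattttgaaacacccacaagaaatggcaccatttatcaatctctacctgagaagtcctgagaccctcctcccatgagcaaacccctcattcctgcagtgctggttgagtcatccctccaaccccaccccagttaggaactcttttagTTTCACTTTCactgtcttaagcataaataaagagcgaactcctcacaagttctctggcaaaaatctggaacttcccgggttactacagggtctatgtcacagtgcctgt
In Isg15, 3 overlapping matches form a single run that begins 78 bases before the gene's start. In Bst2, 2 overlapping matches begin 130 and 124 bases before it, and the 2 of Ifit3 stand apart, at 156 and 122. Rsad2 and Gbp2 hold 1 match each, at 120 and 59.

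Promoters were found for 31 members, 39 promoters in all. The ISRE letters, read on both strands, were present in at least 1 promoter of 18 of these genes (58.1%), against 3.99% of 27025 genes with promoters of the same length. The GAS letters, TTC and GAA with any 3 bases between, which read the same on both strands, were present in 8 (25.8%), against 9.55% of genes. A GAS match overlapped an ISRE match in Bst2 and in Ifitm3. By the call between ages described below, 2 of 7 members lower in P1 held the ISRE letters (Isg15 and Bst2), and 13 of 19 tested members that were not called did. A match in this window is a description of its letters, and their absence says nothing of the factor.

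Before the members, the arrays as a whole need 1 paragraph. Intensities had been made equal in distribution between arrays before deposit, so that the median intensity was 121 on each array, and background was left in, which shrinks folds most near it. A gene was tested when its probe exceeded an intensity of 127, the floor, on at least 3 arrays. Over 10450 genes tested with limma, 1012 were lower and 1092 higher in P1 at a Benjamini-Hochberg adjusted p under 0.05. Of 9 tested gate and pan-macrophage markers 1 was lower and 1 higher in P1. Csf1r was higher (log2 fold change, P1 minus P14, 0.82, adjusted p = 0.00235) and Ptprc lower (-0.42, adjusted p = 0.0254). Intensity ran from 3373 to 5727 for Adgre1, which encodes F4/80. It ran from 305 to 456 for Itgam, which encodes CD11b, and neither of these was called. Of 7 tested monocyte markers 6 were lower in P1, of 8 resident macrophage markers 5 were higher, and of 10 neutrophil markers 9 were higher and 1 lower although Ly6G+ cells were gated out. Of 6 tested cardiomyocyte markers 5 were higher in P1. P14 replicate 3 stood apart from P14 replicates 1 and 2 on the second principal component, at -15.4 against 8.17 and 5.61. Nothing in the labels says that arrays came from separate animals, so p-values measure the spread between arrays, part of which may be technical. In sorted but bulk RNA, fewer cells making a transcript and less transcript per cell cannot be told apart.

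Of the 43 members, 35 were tested, and 0 of these lay below the floor on every array of an age. Ifit1, Ifih1, Ifi204, Gbp6, Iigp1 and Xaf1 did not pass the filter, with highest intensities between 115 and 142. Of the 35, 11 were lower in P1 and 0 higher. Over all genes tested, 9.68% were called lower and 10.4% higher. The log2 fold change, P1 minus P14, was below 0 in 28 members, with a median of -0.53, against 0.01 over all genes tested. The groups did not overlap in 17 members, 16 of them with P1 below (over all genes, 18.0% with P1 below and 20.6% with P1 above). The 11 called were Isg15, Usp18, Oasl2, Oas2, Bst2, Cmpk2, Isg20, Ifi35, Dhx58, Zbp1 and Irf9. In 10 of them the groups did not overlap, and the exception was Isg15.

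**Figure D1:**
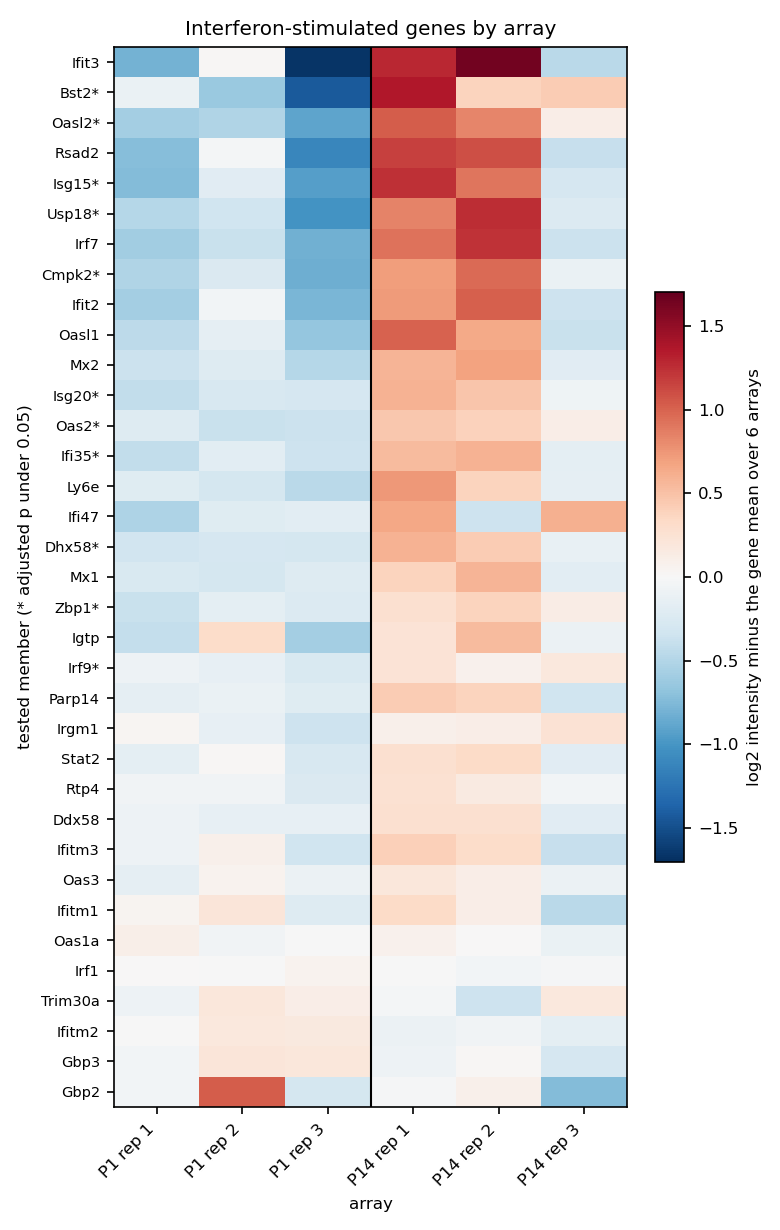
Log2 intensity of each of the 35 tested members on each array, as the difference from the gene's mean over 6 arrays (colour scale), with members in rows ordered by log2 fold change and arrays in columns. P14 replicates 1 and 2 are red in most upper rows, P14 replicate 3 is pale or blue in many of them, and the lowest rows show small differences by age, apart from Gbp2, which is high on P1 replicate 2 and low on P14 replicate 3.

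The count depended on single arrays. Without P14 replicate 3, 23 members were lower in P1 (8.55% of all genes were lower in that fit). Without P1 replicate 1, 2 or 3 the number was 6, 5 or 3 (7.53%, 6.75% and 5.12% of all genes), and without P14 replicate 1 or 2 it was 3 or 5 (5.89% and 5.90%). The median log2 fold change moved less, between -0.61 and -0.45 over these 6 fits. The calls of Oas2, Oasl2 and Zbp1 were kept in all 6 fits, with adjusted p of at most 0.0275, 0.0323 and 0.0330. With no filter, when 41 members and all dim probes entered the adjustment, Isg15, Usp18, Bst2, Cmpk2, Isg20, Ifi35 and Dhx58 missed the threshold (limma adjusted p 0.0503 to 0.107). With trend and robust eBayes Isg15, Usp18, Bst2 and Cmpk2 missed it (0.0734 to 0.146), and with the mean of each gene's probes Isg15, Ifi35 and Irf9 did (0.0600, 0.0571 and 0.203).

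The ISG15 system holds a ubiquitin-like protein that is attached to other proteins, Isg15, and the protease that removes it and also restrains receptor signalling, Usp18. Intensities are given here and below in the order of replicates 1, 2 and 3. Isg15 had 425, 620.1 and 368 in P1 and 1663, 1323 and 581 in P14. P14 replicate 3 was thus below P1 replicate 2, and the other two P14 arrays were above every P1 array. The level was 2.36-fold lower in P1 (log2 fold change -1.24 ± 0.368, SE, n = 3 arrays per group, limma adjusted p = 0.0492). Usp18 had 439.7, 487 and 304 in P1 and 1104, 1466 and 523 in P14, with no overlap. It was 2.35-fold lower in P1 (-1.23 ± 0.352, adjusted p = 0.0438), and its fainter probe was lower too (-0.93, adjusted p = 0.0338 over all probes). Both calls were lost when any 1 array other than P14 replicate 3 was left out, with limma adjusted p between 0.0553 and 0.148 for Isg15 and between 0.0677 and 0.136 for Usp18. Without P14 replicate 3 it was 0.00442 and 0.00437.

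Oligoadenylate synthetases make a short nucleotide that activates the RNA-cutting enzyme RNase L, and the OAS-like proteins of the family include members without that activity that act on antiviral signalling. Of the 5 tested, Oasl2 and Oas2 were lower in P1, and Oasl1, Oas3 and Oas1a did not pass. Oasl2 had 689, 718 and 550.2 in P1 and 2103, 1832 and 1112 in P14. Every P14 array was well above every P1 array, and the level was 2.51-fold lower in P1 (-1.33 ± 0.223, adjusted p = 0.00750). Its fainter kept probe differed by less (-0.37, adjusted p = 0.0431 over all probes). Oas2 had 460.3, 413 and 417 in P1 and 739, 708 and 583 in P14, again without overlap. It was 1.57-fold lower in P1 (-0.65 ± 0.102, adjusted p = 0.00608). Oasl1 had 238, 292 and 205 in P1 and 648, 506 and 249 in P14, where P14 replicate 3 fell among the P1 arrays (-0.84 ± 0.317, adjusted p = 0.102). Oasl1 passed without P14 replicate 3, at -1.24 (limma adjusted p = 0.00510). Oas3 and Oas1a lay close to the floor on all arrays, with log2 fold changes of -0.13 and 0.02 (adjusted p = 0.403 and 0.882). Genes of the Oas1 cluster are close copies, so their probes may not separate them.

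IFIT proteins bind foreign RNA and hold back its translation. Neither tested member passed, although Ifit3 had the largest fold change of the 35. Ifit3 had 492, 869 and 269 in P1 and 2074, 2673 and 621 in P14, with P14 replicate 3 between P1 replicates 1 and 2. The log2 fold change was -1.64 ± 0.579 (adjusted p = 0.0844), and the spread was wide at both ages (SD 0.85 and 1.12 on the log2 scale). Ifit2 had 266, 384 and 232 in P1 and 657, 802 and 310.2 in P14 (-0.93 ± 0.339, adjusted p = 0.0917). Without P14 replicate 3 the log2 fold changes of Ifit3 and Ifit2 were -2.28 and -1.34, with limma adjusted p of 0.0138 and 0.00782. Ifit3 has a near-identical copy, Ifit3b, that its probe may also read.

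**Figure D2:**
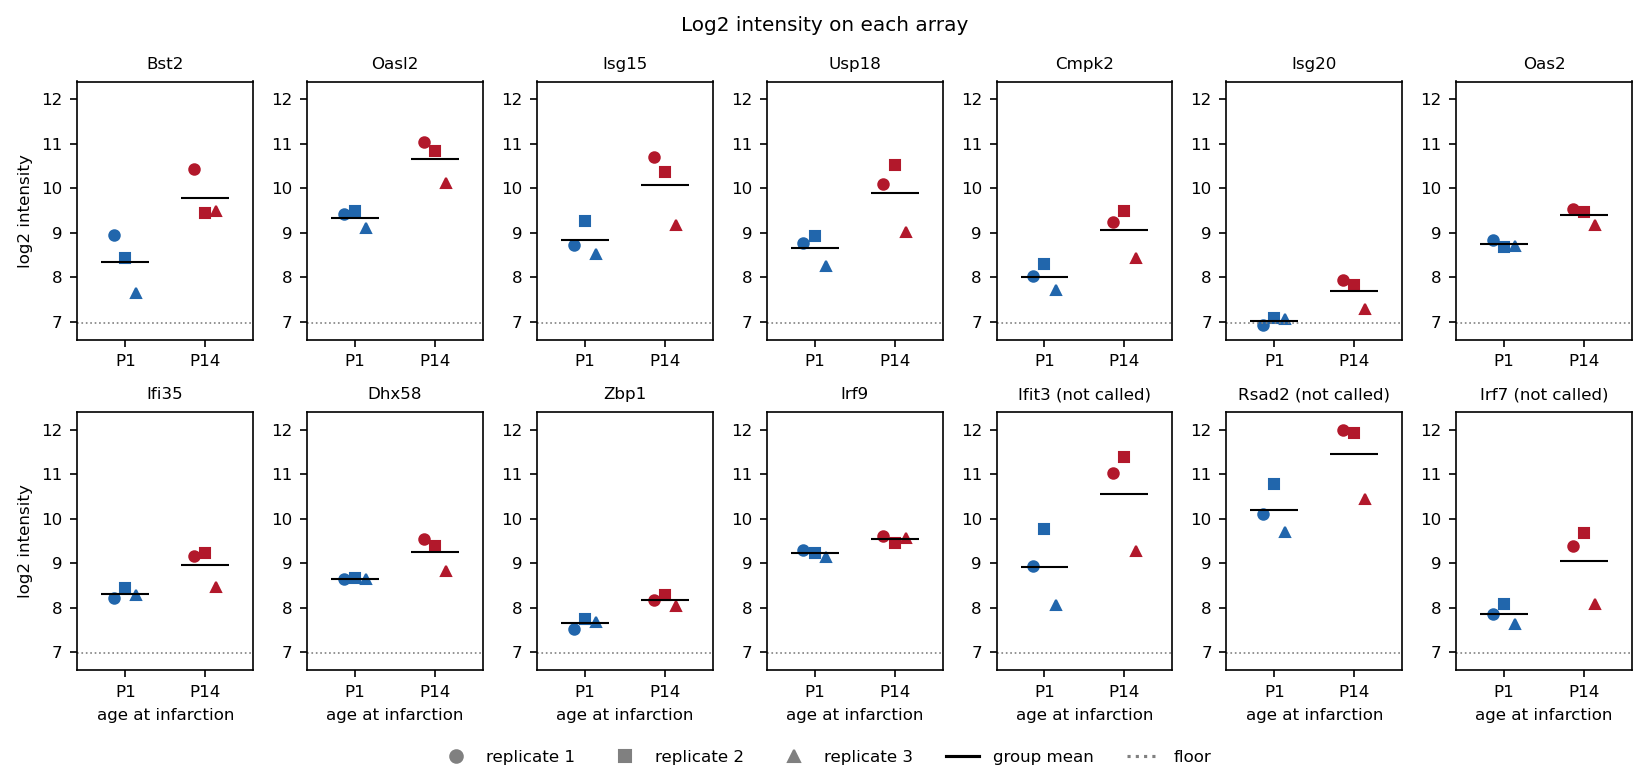
Log2 intensity (vertical axis) at each age (horizontal axis) for the 11 called members and for Ifit3, Rsad2 and Irf7, with 1 point per array, marker shape for the replicate number, black bars for group means and a dotted line at the floor. P14 replicate 3 (triangle) is the lowest P14 point in most panels, but lies above P14 replicate 2 for Bst2 and Irf9.

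Among the other effectors, 4 of 9 tested were lower in P1. Bst2 encodes tetherin, which holds budding virus at the cell surface, and had 498, 348 and 201 in P1 and 1378, 700.0 and 724 in P14. Here P14 replicates 2 and 3 were nearly equal and replicate 1 was high, and the P1 arrays differed by 2.48-fold among themselves. The level was 2.72-fold lower in P1 (-1.44 ± 0.356, adjusted p = 0.0271). The call was lost without P1 replicate 2 or 3 or P14 replicate 1 or 2 (limma adjusted p 0.0616, 0.0693, 0.0736 and 0.0501). Bst2 also marks plasmacytoid dendritic cells. Of that cell type's 6 markers on the array 4 were tested, with a median log2 fold change of 0.12. Their summed intensity was 2626 to 3187 in P1 and 2325 to 2767 in P14. Most of the sum was Tcf4, at 2023 to 2294 and 1690 to 1995.5, so it says little of the other markers. Siglech, at 181 to 191 in P1 and 221 to 269 in P14, was lower in P1 as Bst2 was (-0.37, adjusted p = 0.0216). Cox6a2, Tcf4 and Pacsin1 had 0.59, 0.27 and -0.04 without passing (adjusted p = 0.144, 0.0640 and 0.736). Ccr9 and Klk1 were below the floor on all arrays. The part of these cells in the Bst2 difference was not tested.

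Cmpk2, a mitochondrial nucleotide kinase next to Rsad2 on chromosome 12, had 261, 313 and 209 in P1 and 608, 725 and 344 in P14. All P14 arrays were above all P1 arrays (2.07-fold lower in P1, -1.05 ± 0.266, adjusted p = 0.0297). Its neighbour Rsad2, which encodes viperin, an enzyme that makes a chain-terminating nucleotide, had 1094, 1767 and 837 in P1 and 4064, 3867 and 1381 in P14. There P14 replicate 3 was below P1 replicate 2, and the difference did not pass (-1.25 ± 0.428, adjusted p = 0.0768). Without P14 replicate 3 it was -1.76 (limma adjusted p = 0.00794). The call of Cmpk2 was lost without P1 replicate 1 or 3 or P14 replicate 1 or 2 (limma adjusted p 0.0640, 0.0985, 0.0914 and 0.0850).

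Isg20, an exonuclease that degrades RNA, had 123, 136 and 134 in P1, of which the first is below the floor, and 247, 227 and 156 in P14. It was 1.58-fold lower in P1 (-0.66 ± 0.159, adjusted p = 0.0255), and the fold was 2.59 when background was corrected by normexp. Ifi35, an interferon-induced leucine zipper protein, had 296, 351 and 311 in P1 and 577, 596 and 354 in P14. P14 replicate 3 exceeded the highest P1 array by little (1.56-fold lower in P1, -0.64 ± 0.189, adjusted p = 0.0489). Both calls were lost without any 1 of P1 replicates 1, 2 and 3 and P14 replicates 1 and 2, with limma adjusted p of at most 0.0822 for Isg20 and 0.142 for Ifi35. Ly6e, a surface protein that hinders entry of some viruses, was below P14 on every P1 array without passing (-0.64 ± 0.200, adjusted p = 0.0576), while its other kept probe was called lower (-0.69, adjusted p = 0.0499 over all probes). Parp14, an ADP-ribosyl transferase, and Rtp4, a chaperone protein, had -0.31 and -0.24 (adjusted p = 0.283 and 0.124). Ly6e, Parp14 and Rtp4 passed without P14 replicate 3, at -0.88, -0.56 and -0.33 (limma adjusted p = 0.00629, 0.00499 and 0.0464). Trim30a, which restrains inflammatory signalling, had 0.15 (adjusted p = 0.508).

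Mx proteins are dynamin-like GTPases that trap viral components. Mx2 had 176, 196 and 163 in P1 and 339, 364 and 199 in P14, and Mx1 had 129.9, 126 and 134 in P1 and 203, 234 and 138 in P14. In both, P14 replicate 3 stood just above the P1 arrays and neither passed (-0.71 ± 0.211, adjusted p = 0.0503, and -0.53 ± 0.172, adjusted p = 0.0658). Both passed without P14 replicate 3, at -0.98 and -0.75 (limma adjusted p = 0.00315 and 0.00375), and both passed after normexp (0.0380 and 0.0414), which moved the fold of Mx1 from 1.44 to 2.18.

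The sensors of the list detect nucleic acid in the cell. Of 3 tested, Dhx58 and Zbp1 were lower in P1 and Ddx58, which encodes RIG-I, did not pass (-0.24 ± 0.126, adjusted p = 0.221) except without P14 replicate 3 (-0.39, limma adjusted p = 0.0126). Dhx58 encodes LGP2, a partner of RIG-I and of Ifih1, and had 398, 408 and 402 in P1 and 749, 672 and 456 in P14. The P1 arrays were almost equal (SD 0.019 on the log2 scale) while the P14 arrays spread (SD 0.377), and all 3 kept probes were called (-0.67 to -0.59). The level was 1.52-fold lower in P1 (-0.60 ± 0.166, adjusted p = 0.0382), a call lost without any 1 of the 5 arrays other than P14 replicate 3 (limma adjusted p 0.0833 to 0.116). Zbp1, a sensor of left-handed nucleic acid that can start necroptosis, had 185, 214 and 205 in P1 and 289.6, 312 and 262 in P14. It was 1.43-fold lower in P1 (-0.51 ± 0.0902, adjusted p = 0.00868), with P14 replicate 3 close to the other P14 arrays. All 3 of its probes were called, but the faintest was below the floor on every P1 array (log2 intensities 6.88, 6.89 and 6.80). That probe passed the filter only through P14, so its call adds no support.

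The transcription factors split. Irf9, the DNA-binding part of the complex that type I interferon activates, had 632, 605 and 560.2 in P1 and 783, 704 and 756 in P14. The difference was small and even (1.25-fold lower in P1, -0.32 ± 0.0768, adjusted p = 0.0251), and P14 replicate 3 was not the lowest P14 array. A fainter probe of Irf9 had the same direction but a wide spread and did not pass (-0.83 ± 0.536, adjusted p = 0.345 over all probes). Its log2 intensities were 7.70, 8.92 and 7.73 in P1 and 8.35, 8.28 and 10.22 in P14. The Irf9 call was lost without P1 replicate 2 or 3 or P14 replicate 1 or 3 (limma adjusted p 0.0560, 0.0904, 0.0787 and 0.0527), after normexp (0.0582) and with the mean of its probes (0.203). Irf7, which drives the later wave of interferon production, had 232, 269.6 and 198 in P1 and 666, 818 and 273 in P14. P14 replicate 3 barely exceeded the highest P1 array, P14 spanned 3.00-fold, and the difference did not pass (-1.20 ± 0.361, adjusted p = 0.0523). Without P14 replicate 3 it was -1.67 (limma adjusted p = 0.00248), and the call was also gained after normexp (0.0393), with array weights (0.0126) and with only genes above the floor on all 6 arrays (0.0434). Stat2, which belongs to the same complex, had -0.27 ± 0.145 (adjusted p = 0.225), and -0.44 without P14 replicate 3 (limma adjusted p = 0.0274).

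Irf1, which interferon gamma induces strongly, had 6117, 6049 and 6356 in P1 and 6049, 5866 and 5999 in P14. The log2 fold change of its brightest probe was 0.05 (95% interval -0.10 to 0.19, adjusted p = 0.650). Its probes disagreed, since 1 of 5 was called higher in P1 (0.60, adjusted p = 0.0160 over all probes) and the mean of all 5 was too (0.27, limma adjusted p = 0.0364).

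The interferon-inducible GTPases of the GBP and IRG families attack the vacuoles of intracellular microbes and respond mainly to interferon gamma. None of the 5 tested passed with all arrays: Ifi47, Igtp, Irgm1, Gbp3 and Gbp2 had log2 fold changes from -0.60 to 0.45. Ifi47, Igtp and Irgm1 each passed in 1 of the fits that left out an array (limma adjusted p 0.0102 for Ifi47 and 0.0383 for Irgm1). That fit was not the one without P14 replicate 3 (limma adjusted p = 0.294, 0.138 and 0.175). Ifi47 had 249, 311 and 316 in P1 and 565, 279 and 545 in P14, so that P14 replicate 2, not 3, was the low P14 array. Gbp2 had 1715, 3631 and 1434 in P1 and 1748, 1874 and 1059 in P14, with the high value on P1 replicate 2 (0.45 ± 0.349, adjusted p = 0.412). Without P1 replicate 2 the log2 fold change of Gbp2 was 0.05 (limma adjusted p = 0.921). Irgm1 was lower on each P1 array than on any P14 array, without passing (-0.30 ± 0.105, adjusted p = 0.0779).

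IFITM proteins sit in endosomal membranes and hinder fusion of entering virus. The family was bright at both ages and none of the 3 passed. Ifitm3 had 9995, 11298 and 8389 in P1 and 14055.5, 13095 and 8109 in P14, with P14 replicate 3 the lowest of all arrays (-0.22 ± 0.206, adjusted p = 0.513). Without that array Ifitm3 passed, at -0.47 (limma adjusted p = 0.0451). Ifitm1 had 10779, 12079.5 and 9013 in P1 and 13095, 11298 and 7615 in P14, also lowest on P14 replicate 3 (0.02 ± 0.196, adjusted p = 0.960). Ifitm2 had 9413, 10761 and 10612 in P1 and 8825, 9091 and 8467 in P14, the only tested member with every P1 array above every P14 array (0.22 ± 0.0769, adjusted p = 0.0805). Of 5 Ifitm1 probes, the brightest moved little and 2 fainter ones were called higher in P1 (0.54 and 0.34, adjusted p = 0.00400 and 0.0348 over all probes). The Ifitm genes are close neighbours and copies on chromosome 7, and these probes may not separate them.

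**Figure D3:**
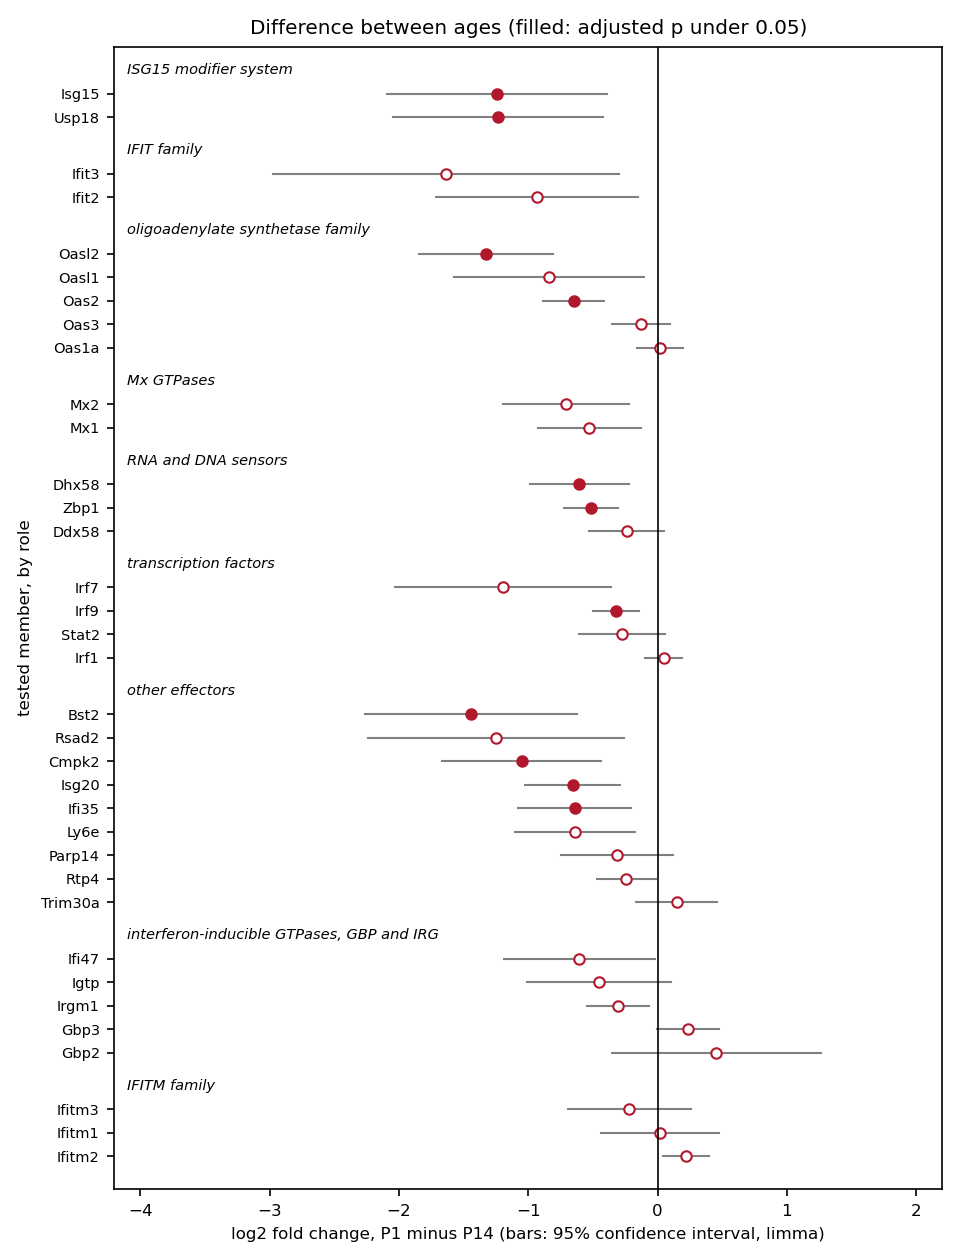
Log2 fold change, P1 minus P14 (horizontal axis), of the 35 tested members grouped by role (vertical axis), with 95% confidence intervals from limma and filled points for an adjusted p under 0.05. Filled points run from -1.44 (Bst2) to -0.32 (Irf9), and the points above 0 belong to Oas1a, Irf1, Trim30a, Gbp3, Gbp2, Ifitm1 and Ifitm2.

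Over every probe in place of 1 per gene, 57 of 79 passed the filter, 16 were lower in P1 and 3 higher, against 8.32% and 8.29% of all 18982 kept probes. The 3 higher ones were the Ifitm1 and Irf1 probes above. The 16 lower ones include the faintest Zbp1 probe, which passed the filter only through P14. For 14 members with more than 1 kept probe the log2 fold changes spanned 0.03 to 1.10, widest for Ifit3 (1.10) and Oasl2 (0.96).

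The spread within P14 was larger than within P1. The SD over arrays was larger in P14 for 28 of 35 members (80%), against 53.0% of all genes tested. Its median was 0.40 in P14 and 0.14 in P1 on the log2 scale, against 0.10 and 0.09 over all genes. The members were not alone in this: it was 0.35 and 0.21 for the 7 monocyte markers. For the 8 resident macrophage markers it was 0.38 and 0.16. The 10 neutrophil markers went the other way, at 0.13 in P14 and 0.32 in P1. In 9 members (25.7%) the P14 arrays spanned more than 1 log2 unit, against 0.766% of all genes, or 0.883% of genes above the floor on all arrays. In P1, 4 members (11.4%) did so, against 0.660% of all genes. The widest P14 spans were 4.30-fold for Ifit3, 3.00-fold for Irf7, 2.94-fold for Rsad2, 2.86-fold for Isg15 and 2.80-fold for Usp18. The narrowest were 1.03-fold for Irf1, 1.07-fold for Ifitm2 and 1.11-fold for Irf9.

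**Figure D4:**
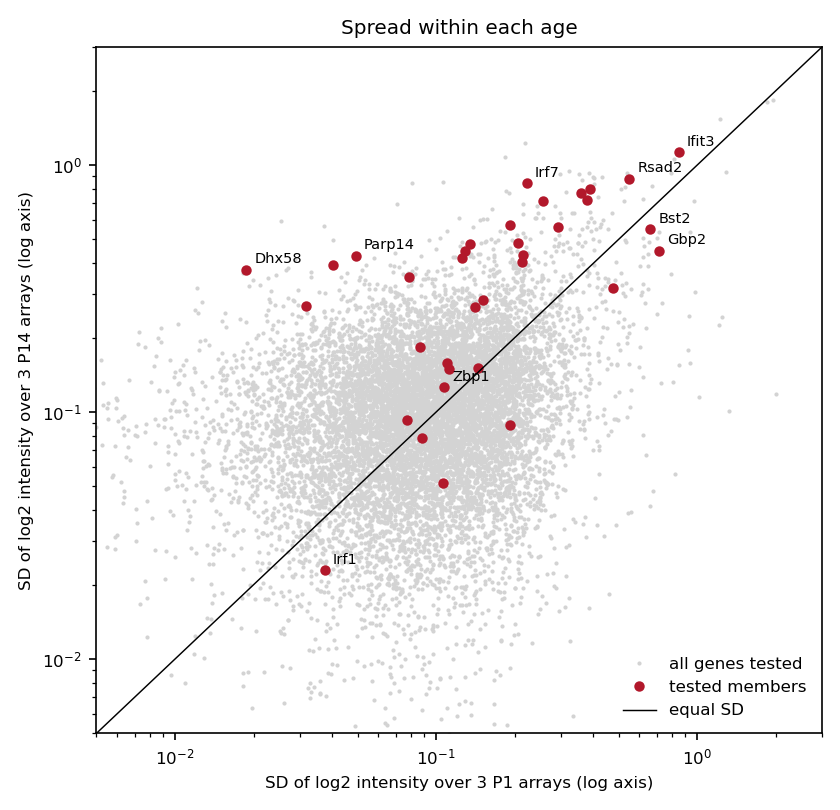
SD of log2 intensity over the P14 arrays against that over the P1 arrays (log axes), for all genes tested (grey, 60 of them outside the axes) and the 35 tested members (red), with a line at equal SD. Of the members, 28 lie above the line, with Dhx58 farthest to the left, its P1 arrays being nearly equal, and 7 lie below it, among them Bst2, Gbp2 and Irf1.

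The spread had the same lead array for most members. P14 replicate 3 was the lowest P14 array for 29 of 35 (82.9%), against 36.9% of all genes, P14 replicate 2 for 5 and P14 replicate 1 for 1. P14 replicate 1 exceeded every P1 array in 28 members and P14 replicate 2 in 27, but P14 replicate 3 in 17 only. Over all genes these shares were 33.5%, 31.7% and 33.7%. In the remaining members P14 replicate 3 lay within the P1 range for 9 (25.7%, against 29.5% of all genes). It lay below that range for 9, against 3846 of all 10450 genes, so neither count exceeds the share over all genes. Within P1, replicate 2 was the highest array for 24 of the 35 members (32.2% of all genes) and replicate 3 the lowest for 21 (30.0% of all genes).

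The mean log2 deviation of the 35 members from their own means was -0.28, -0.09 and -0.44 on the P1 arrays and 0.50, 0.44 and -0.13 on the P14 arrays, so the ages overlapped. The 7 monocyte markers (Ly6c1, Ccr2, Plac8, Chil3, Vcan, Itgb7 and S100a4) moved with them: their mean deviation was -0.44, -0.20 and -0.58 in P1 and 0.67, 0.51 and 0.04 in P14. Their summed intensity was 4208 to 6814 in P1 and 6762 to 12857 in P14, lowest in P14 on replicate 3 and highest in P1 on replicate 2. The mean of the 8 resident macrophage markers did not single out P14 replicate 3 (0.54, 0.46 and 0.64 in P1 and -0.66, -0.40 and -0.58 in P14). Single markers deviated there in opposite directions, and 4 of the 8 were lowest of P14 on that array. In P14, Cd163 had 1238, 1394 and 800 and Fcna 1048, 1904 and 746. Cx3cr1 had 919, 1148 and 1629 and Igf1 1296, 1623 and 2425.5. The 10 tested neutrophil markers had summed intensities of 15916 to 22649.5 in P1 and 9018 to 12624 in P14. The part of monocytes, or of any other cell type, in the interferon-stimulated values was not tested.

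**Figure D5:**
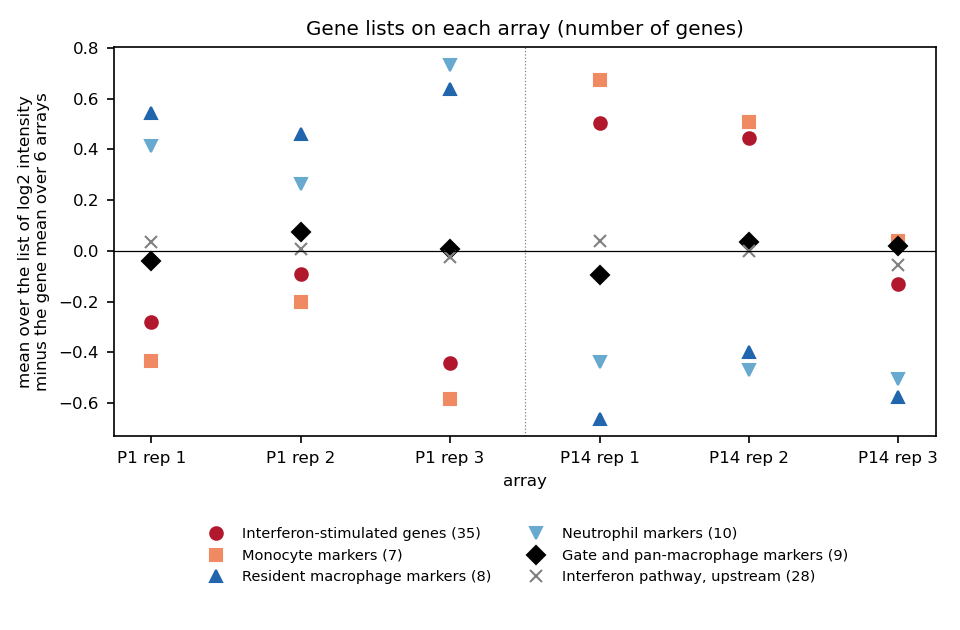
Mean over each gene list of log2 intensity minus the gene's mean over 6 arrays (vertical axis), on each array (horizontal axis), with 1 marker per list and the number of tested genes in the key. Interferon-stimulated genes and monocyte markers are high on P14 replicates 1 and 2 and fall to -0.13 and 0.04 on P14 replicate 3, while resident macrophage markers stay below -0.39 on all P14 arrays.

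Upstream of these genes stand the ligands, receptors, kinases, inducers and regulators of the pathway. Of 41 such genes 36 had a probe under the listed name and 28 were tested. Cgas, listed by its older name Mb21d1, was on the array and passed the filter but is not counted. Other listed names without a probe may be missed in the same way. Of the 28, 5 were lower and 3 higher in P1 (over all genes tested, 9.68% and 10.4%), with a median log2 fold change of 0.01. The mean deviation of the 28 stayed between -0.06 and 0.04 on all arrays. Of the ligands, Ifna1 and Ifnb1 were close to the floor at both ages, with mean log2 intensities of 7.10 and 7.03 in P1 and 7.15 and 7.05 in P14, and Ifng did not pass the filter.

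Among receptors, Ifngr1, the ligand-binding chain for interferon gamma, was higher in P1. Its log2 intensities were 10.99, 11.08 and 11.06 in P1 and 10.28, 10.51 and 10.65 in P14 (0.56 ± 0.0977, adjusted p = 0.00822). Il10rb, a chain shared by the receptors of interferon lambda and interleukin 10, was lower (-0.43 ± 0.0942, adjusted p = 0.0186). Tyk2, the kinase bound to Ifnar1, was higher (0.39 ± 0.0724, adjusted p = 0.0109).

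Among inducers and regulators, the adaptor Myd88 had log2 intensities of 12.05, 12.10 and 12.00 in P1 and 12.49, 12.44 and 12.38 in P14. It was lower in P1 (-0.39 ± 0.0678, adjusted p = 0.00868), and P14 replicate 3 stayed with the other P14 arrays. Irf3, the factor that sensors activate to induce interferon beta, was lower (-0.36 ± 0.0759, adjusted p = 0.0155). Trex1, a nuclease that clears cytosolic DNA, was lower as well (-0.57 ± 0.138, adjusted p = 0.0251), as was the signalling inhibitor Socs3 (-0.22 ± 0.0603, adjusted p = 0.0390). Adar, which edits double-stranded RNA, was called higher (0.40 ± 0.101, adjusted p = 0.0281), but another of its probes was called lower (-0.41, adjusted p = 0.0144 over all probes), so its direction is not settled. The calls of Myd88, Ifngr1 and Tyk2 held without any 1 array. The lost ones, with their highest limma adjusted p, were Trex1 without P1 replicate 1 or 3 or P14 replicate 1 or 2 (0.0859), Il10rb without P1 or P14 replicate 1 (0.0633), Irf3 without P1 replicate 3 or P14 replicate 1 (0.0588), Adar without P1 replicate 1 or 3 or P14 replicate 1 or 3 (0.0788) and Socs3 without any 1 array (0.107). Irf3 and Adar were also lost with the mean of their probes (0.0581 and 0.933), and Socs3 after normexp (0.168).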

How the data were processed

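Total RNA of sorted cardiac cells was labelled as cRNA, per the labels' protocols, and read on Illumina mouse expression arrays. The intensities the authors deposited were used: the sorted values of the 6 columns differed by at most 0.472% at any rank, so they had been quantile-normalized, by software not given in the sources used here. The lowest intensity was 96.7, so background had not been subtracted. A scanner table with 24 columns, named by chip position and matching no sample label, was not used, so slide and position could not be examined as batches. The number of arrays limits precision.

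Groups and replicate numbers came from the sample titles. Probes were named from the platform annotation (34885 of 45281 had 1 symbol) and checked against RefSeq of GRCm38.p6 (0 symbols changed). The floor was 3 standard deviations above the most frequent value, the deviation taken from the values below it. Each gene was represented by its kept probe of highest mean. With group as the only term, log2 intensities entered limma 3.58.1 (lmFit, then eBayes; R 4.3.3) for a two-sided test adjusted over all genes tested, and 95% intervals use its moderated error. Simulated data with known changes served to test the fit. Motifs were searched as spelled out, on both strands. Alternatives covered the filter, probe rule, variance model, array weights, replicate block, normexp (offset 16), cyclic loess and leaving out each array. The members and lists were chosen with earlier results of these data known, and any of the 43 members could be named. Members past the threshold and the 3 uncalled members of highest mean are given on every array, the others shown so were chosen after their values were seen.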

Additional observations from a re-analysis of the deposited data

How the results depend on the processing

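With all arrays, the number of members lower in P1 (11 as reported) was 4 with no filter on dim probes (4.68% of all genes), 7 with trend and robust eBayes (9.89%), 19 with array weights (11.2%) and 19 with the replicate number as a block (10.2%). Over all kept probes (16 as reported) it was 5 with no filter, which tested 79 probes, and 29 each with array weights and the replicate block. Shares over all probes are not given for these settings. The shares over all genes moved in the same direction, so part of the change in probe counts may not be particular to the members. Array weights, which gave P14 replicate 3 the lowest weight, 0.584, added Irf7, Oasl1, Ifit2, Ifit3, Mx1, Mx2, Rsad2 and Ly6e. Leaving out 1 array gave 3 to 23 members and 4 to 34 probes lower in P1, and 1 to 3 probes higher. Of the 28 upstream genes, 1 to 5 were then lower and 2 to 5 higher. Over all genes in these 6 fits, 5.12% to 8.55% were lower, and 518 to 921 of 10450 were higher. Shares over all kept probes are not given for these fits, so the probe counts cannot be set against a background. The number of members higher in P1 was 0 except with the mean of a gene's probes, where it was 1, Irf1. The median log2 fold change of members ran from -0.72 with normexp to -0.32 with no filter, which tested 41 members. For single members, 395 of the values under alternatives kept their side of the threshold, 39 gained a call, 52 lost one and 0 called values changed sign. Same-numbered arrays of the ages deviated together only weakly (correlations over genes of 0.16, 0.07 and 0.13 for numbers 1, 2 and 3), each highest with its own number, and the numbers were not treated as pairs. The block changed no call among members other than the 8 it added (Irf7, Oasl1, Ifit2, Ifit3, Mx2, Igtp, Rsad2 and Ly6e), and ended the upstream call of Socs3 (adjusted p = 0.0698). Cyclic loess changed no call among members. The causes of these changes were not tested. Signal close to background limits Oas1a, Oas3, Mx1 and Isg20, and the 6 members that did not pass the filter.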
